A study of Mus musculus with 4 samples.

Results

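The genes described here are 42 S phase genes, a fixed list of genes whose transcripts accumulate while cells copy their DNA. All 42 were found by symbol among the 32285 genes of the files, and they were followed in C57BL/6J mouse embryos at embryonic day 11.5. The cells came from the aorta-gonad-mesonephros region (AGM), a site at which haematopoietic stem cells first form, and are labelled as sorted for CD31, an endothelial and blood cell surface protein that Pecam1 encodes. TMRM, a dye that mitochondria take up in step with their membrane potential, was used to split them into a dim fraction (MMPlow) and a bright one (MMPhigh). Both fractions have 2 single-cell libraries each, called MMPlow 1 and 2 and MMPhigh 1 and 2, and the labels name no transgene or drug. The study asked which transcriptional differences go with the split of stem cell function by mitochondrial activity. The labels do not say how many embryos were pooled or whether the 2 libraries of a fraction came from separate litters, so p-values measure the spread between these libraries only.

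Replication is licensed in G1, when Cdc6 helps to load the MCM2-7 helicase at origins, and it fires at the start of S phase, when Cdc45 and the GINS complex join the helicase. Polymerase alpha with primase (Pola1, Prim1) starts each strand, Pcna and its loader keep the polymerases on the template, and ribonucleotide reductase (Rrm1, Rrm2) and thymidylate synthase (Tyms) supply the nucleotides. New histones are brought to the fork by chaperones such as Nasp and Chaf1b. Many of these genes are transcribed together by E2F factors, which cyclin E (Ccne1, Ccne2) with Cdk2 releases from the retinoblastoma proteins. In the embryo, progenitors cycle rapidly, and neurons leave the cycle as they differentiate.

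RefSeq promoters (GRCm38.p6) were found for 32 of the 42 genes, and the 250 bases before the start were searched on both strands for 4 forms of the E2F motif, TTTGGCGC, TTTCCCGC, TTTCGCGC and TTTGCCGC. At least 1 form was found in 10 of the 32 genes (31.2%), against 2.16% of all 27025 genes with a RefSeq promoter. It was found in 8 of 37 other replication genes (21.6%) and in 3 of 46 G2 and M phase genes (6.52%). A match is a description of the letters and not a test of binding. Shown are the 7 genes whose motif, together with 20 bases on each side where the 250 bases allow, overlapped no annotated exon. The sequences run 5′ to 3′ on the gene's strand, with the motif in capitals. They let a reader compare genes that were called different between the fractions with genes that were not.
Mcm5, chr8:75109336-75109387, plus strand: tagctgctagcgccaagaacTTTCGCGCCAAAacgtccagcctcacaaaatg
Mcm6, chr1:128359725-128359835, minus strand: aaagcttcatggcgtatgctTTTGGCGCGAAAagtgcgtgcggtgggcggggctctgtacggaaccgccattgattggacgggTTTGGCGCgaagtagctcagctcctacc
Pola1, chrX:93632266-93632313, minus strand: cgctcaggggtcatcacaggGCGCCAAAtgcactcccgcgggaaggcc
Cdc6, chr11:98907993-98908040, plus strand: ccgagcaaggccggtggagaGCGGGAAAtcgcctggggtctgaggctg
Casp8ap2, chr4:32615274-32615321, plus strand: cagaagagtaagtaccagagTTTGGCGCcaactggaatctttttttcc
Dtl, chr1:191575545-191575572, minus strand: atcagaaagcgtgacgtcagTTTGGCGC
Uhrf1, chr17:56304108-56304155, plus strand: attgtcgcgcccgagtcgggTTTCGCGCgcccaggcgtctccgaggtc
In Mcm5 and Mcm6 the capitals hold overlapping matches on opposite strands. The start is that of each RefSeq promoter, and a gene counted when any of its promoters held a match. For Uhrf1 the promoter at 56303087 to 56303336 held none, and the match shown is from another promoter further into the gene. The Cdc6 window also lies inside the annotated span of its gene, which begins at 98907801. Of these 7 genes, Pola1, Cdc6, Casp8ap2 and Dtl were called lower in MMPhigh over all cells, and Mcm5, Mcm6 and Uhrf1 were not called. The motif was therefore present in genes of both kinds.

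After filtering, 15698, 18404, 4248 and 3389 cells were kept in MMPlow 1, MMPlow 2, MMPhigh 1 and MMPhigh 2. Median depth was 3082, 3638, 3754 and 23542 UMIs per cell, so MMPhigh 2 stood apart, and the S phase share of each cell was therefore measured after thinning every cell to 2000 UMIs. Between 7 and 81 kept barcodes were shared by any 2 libraries. Clustering without the S phase genes and other cell cycle genes gave 31 clusters, of which 21 fell into 10 classes named from markers and 10 were left unnamed, with 23.6% and 25.5% of MMPlow cells and 20.8% and 22.8% of MMPhigh cells. Endothelial-like cells were 49.6% and 48.4% of MMPlow and 0.471% and 0.502% of MMPhigh. Pecam1 stood at 275 and 262 counts per 1000000 UMIs (CPM) in the MMPlow sums and at 24.9 and 22.1 in the MMPhigh sums, an edgeR log2 fold of -3.48 ± 0.11 (SE; adjusted p = 2.06e-07). The few endothelial-like cells and the low Pecam1 of both MMPhigh libraries go against their label as CD31-sorted cells, and MMPlow and MMPhigh name the libraries by their labels throughout. The neural or neural crest-like class made up 2.89% and 2.83% of MMPlow and 27.5% and 31.7% of MMPhigh, so a difference over all cells mixes the kinds of cell with the state of each kind.

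S phase transcripts took up a smaller part of the transcriptome in MMPhigh. The 42 genes gave 0.402% of UMIs per cell in MMPlow 1 and 0.410% in MMPlow 2. The shares in MMPhigh 1 and 2 were 0.341% and 0.335%. MMPlow averaged 0.406% ± 0.00557 (SD, n = 2) and MMPhigh averaged 0.338% ± 0.00389 (SD, n = 2). The difference of -0.0686 percentage points is larger than either spread. As counts, the median cell held 7 and 8 S phase UMIs per 2000 in MMPlow and 6 and 5 in MMPhigh. Cells with no S phase UMI were 0.452% and 0.484% of MMPlow and 2.97% and 6.52% of MMPhigh. A cell with at least 10 S phase UMIs per 2000 was met in 32.6% (95% exact interval 31.9 to 33.4) and 33.9% (33.2 to 34.6) of MMPlow cells and in 25.8% (24.5 to 27.1) and 28.0% (26.5 to 29.5) of MMPhigh cells. These intervals cover counting error only. The summed share is a score over the list and carries no test.

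Giving each class equal weight made the fractions less distinct. Over the 8 classes that reached 10 cells in all 4 libraries, the mean share was 0.426% and 0.444% in MMPlow and 0.350% and 0.418% in MMPhigh, a difference of -0.0508 percentage points. Both MMPhigh libraries stayed below both MMPlow libraries, but MMPhigh 1 carried most of the gap. Without MMPhigh 1 the difference over the same 8 classes was -0.0170, and without MMPhigh 2 it was -0.0845. The part of the greater depth of MMPhigh 2 in this was not tested.

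**Figure D1:**
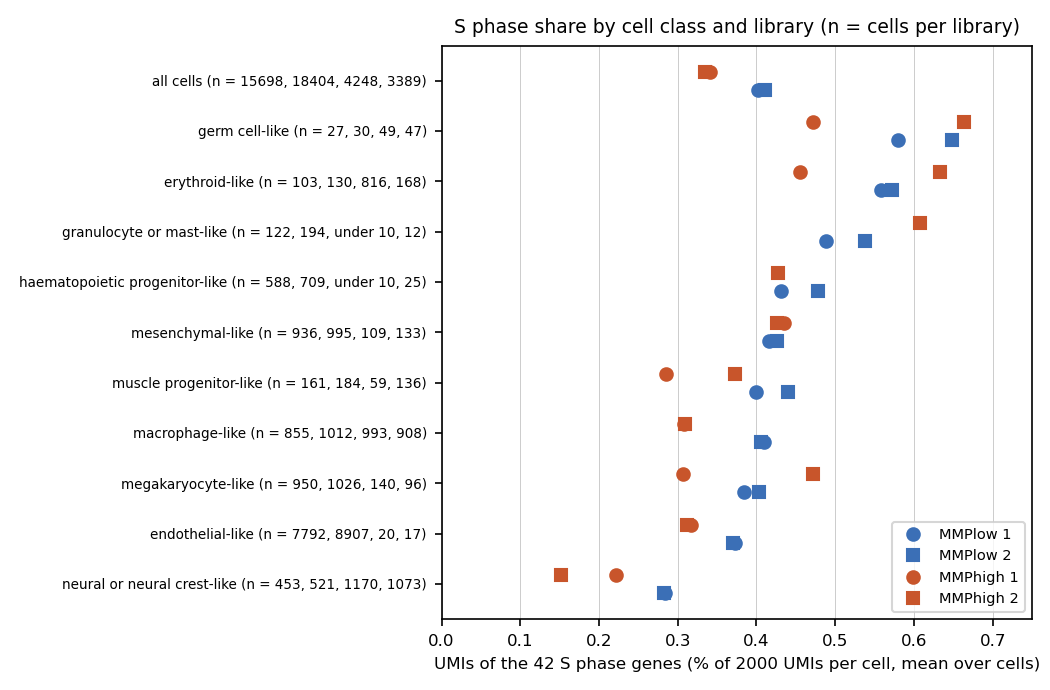
Share of each cell's UMIs that came from the 42 S phase genes (x axis, percent of 2000 UMIs, mean over cells) for all cells and for each named class (y axis, with the number of cells in MMPlow 1, MMPlow 2, MMPhigh 1 and MMPhigh 2). Points are libraries with at least 10 cells; germ cell-like and erythroid-like cells lie highest in MMPlow, and neural or neural crest-like cells lie lowest, with both MMPhigh libraries at 0.221% and 0.152%.

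The classes differed in how much of their RNA came from these genes. In MMPlow, germ cell-like cells had the highest share, at 0.580% and 0.648%, followed by erythroid-like cells at 0.559% and 0.572% and granulocyte or mast-like cells at 0.489% and 0.538%. Germ cell-like cells numbered only 27 and 30, and their 2 libraries lay further apart than their distance from the erythroid-like cells. Haematopoietic progenitor-like cells lay in a cluster led by Ifitm1, Cpa3 and Slc22a3, with Angpt1, Ikzf2 and Hdc next, of which Cpa3 and Hdc are also genes of mast cells and basophils. They stood at 0.431% and 0.478%. Mesenchymal-like cells came next, at 0.416% and 0.426%, and muscle progenitor-like cells, at 0.400% and 0.440%, overlapped with them. Macrophage-like cells lay at 0.409% and 0.405% and megakaryocyte-like cells at 0.384% and 0.404%, both below the mesenchymal-like cells in both libraries, while the muscle progenitor-like range held the macrophage-like values and overlapped with the megakaryocyte-like ones. Endothelial-like cells followed at 0.373% and 0.371%, and neural or neural crest-like cells came last at 0.284% and 0.283%, apart from every other class. This order is a description of classes that were made by clustering, although the clustering used none of the 42 genes.

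Clusters differed within the endothelial-like class, which was almost wholly MMPlow. The cluster led by Gja5, Vegfc and Vwf, of which Gja5 encodes a connexin of arterial endothelium, had a share of 0.275% and 0.270%. The 7 other endothelial-like clusters lay between 0.353% and 0.422%. At least 10 S phase UMIs per 2000 were found in 10.6% (7.39 to 14.5) and 7.22% (4.81 to 10.3) of the cells of the Gja5 cluster, against 27.1% and 26.4% of the whole class. Its G2 and M phase share was also low, at 0.440% and 0.412%, against 0.606% and 0.611% in the class. Among the mesenchymal-like cells, the cluster led by the smooth muscle genes Acta2 and Tagln had an S phase share of 0.288% and 0.294%, against 0.463% and 0.475% in the cluster led by the cartilage genes Col2a1 and Col9a1.

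Clusters led by neuronal or crest genes differed as well. The cluster that makes up the neural or neural crest-like class was led by the neuronal genes Dcc and Map2. An unnamed cluster led by Neurod1, Isl1 and Pou4f1, transcription factor genes of neurons, lay at 0.265% and 0.229% in MMPlow and 0.270% and 0.212% in MMPhigh. An unnamed cluster led by Sox10 and Erbb3, genes of crest and glial precursors, lay at 0.472% and 0.466% in MMPlow and 0.452% and 0.506% in MMPhigh. The Sox10 cluster thus lay above both neuronal clusters in all 4 libraries, and its fractions overlapped by this mean. In summed UMIs its fractions did not overlap, averaging 0.493% in MMPlow and 0.469% in MMPhigh. Another unnamed cluster, led by Myb, Ermap and Slc25a21, had one of the highest shares, at 0.502% and 0.551% in MMPlow and 0.556% and 0.638% in MMPhigh.

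**Figure D2:**
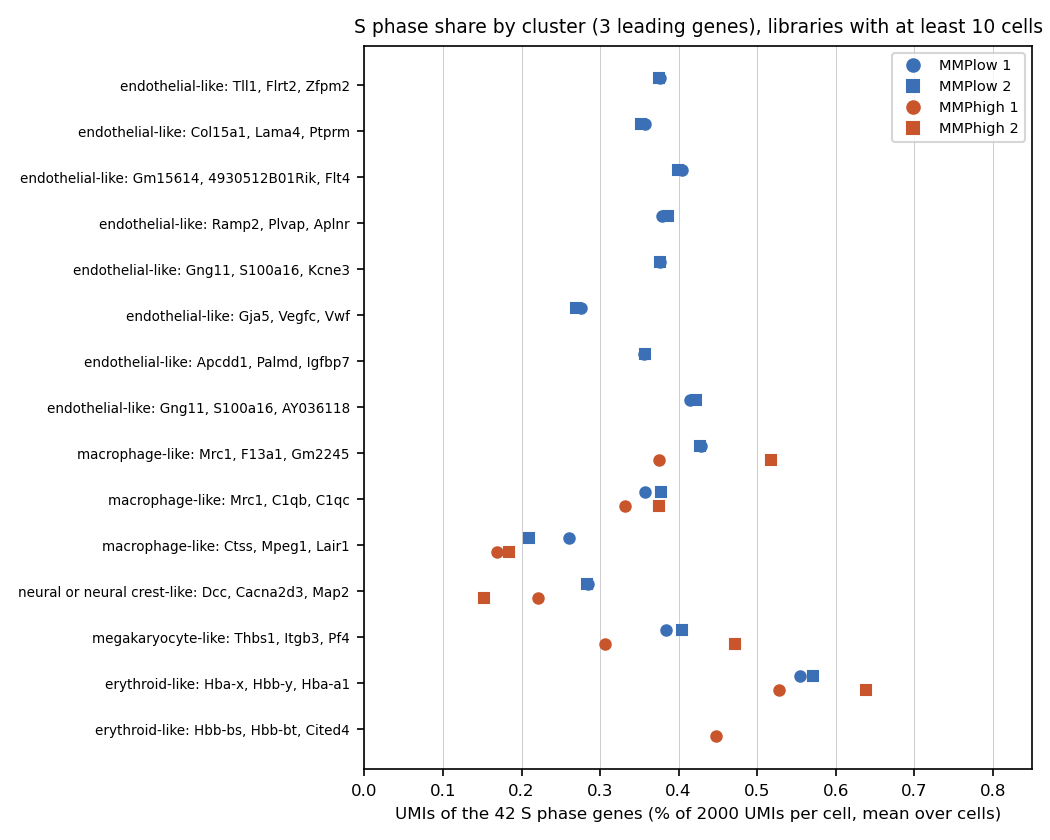
S phase share (x axis, percent of 2000 UMIs per cell, mean over cells) in each cluster of 5 classes, named on the y axis by class and 3 leading genes. Points are libraries with at least 10 cells; the Gja5 cluster is the lowest of the endothelial-like clusters at 0.275% and 0.270%, and the Ctss cluster is the lowest of the macrophage-like clusters in all 4 libraries.

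Within classes, 4 of the 8 compared classes lay lower in both MMPhigh libraries than in both MMPlow libraries. The average in neural or neural crest-like cells was 0.284% ± 0.000851 (SD, n = 2) for MMPlow and 0.186% ± 0.0492 (SD, n = 2) for MMPhigh. In macrophage-like cells MMPlow averaged 0.407% ± 0.00289 (SD, n = 2) and MMPhigh 0.309% ± 0.00151 (SD, n = 2). In muscle progenitor-like cells the averages were 0.420% ± 0.0284 (SD, n = 2) for MMPlow and 0.329% ± 0.0614 (SD, n = 2) for MMPhigh, and in endothelial-like cells they were 0.372% ± 0.00164 (SD, n = 2) for MMPlow and 0.315% ± 0.00406 (SD, n = 2) for MMPhigh. Without MMPhigh 1 the muscle progenitor-like difference went from -0.0911 to -0.0477 percentage points, and without MMPhigh 2 the neural one went from -0.0972 to -0.0625. The endothelial-like value rests on 20 and 17 MMPhigh cells, spread over clusters in other proportions than the MMPlow cells. Mesenchymal-like cells differed by 0.00964 percentage points in the other direction, at 0.416% and 0.426% against 0.435% and 0.426%. This direction was reversed in 2 of 12 alternative settings. In erythroid-like, germ cell-like and megakaryocyte-like cells MMPhigh 1 lay below and MMPhigh 2 above both MMPlow libraries: erythroid-like cells gave 0.455% and 0.634% in MMPhigh, germ cell-like cells 0.472% and 0.664%, and megakaryocyte-like cells 0.307% and 0.472%. In these 3 classes the fractions overlapped. Haematopoietic progenitor-like cells numbered only 4 and 25 in MMPhigh, and granulocyte or mast-like cells only 5 and 12. Neither class was compared.

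The cells behind a class name were not the same in both fractions. Of the macrophage-like cells, 644 of 855 and 678 of 1012 in MMPlow lay in the cluster led by Mrc1 and F13a1, whereas 813 of 993 and 548 of 908 in MMPhigh lay in the cluster led by Mrc1 and C1qb. A further cluster, led by Ctss and Siglech, held 14 and 31 MMPlow cells and 154 and 331 MMPhigh cells, and had the lowest share, at 0.261% and 0.210% in MMPlow and 0.169% and 0.184% in MMPhigh. Within the F13a1 cluster the share was 0.429% and 0.427% in MMPlow and 0.375% and 0.517% in MMPhigh, and within the C1qb cluster it was 0.357% and 0.377% against 0.332% and 0.375%. By this mean the fractions overlapped in the F13a1 and C1qb clusters and did not in the Ctss cluster. In summed UMIs the F13a1 cluster was higher in MMPhigh without overlap, averaging 0.514% against 0.433%. Its cells with at least 10 S phase UMIs per 2000 averaged 45.3% against 37.6%, also without overlap. It held only 26 and 29 MMPhigh cells. In the Ctss cluster, however, cells with at least 10 S phase UMIs per 2000 were 7.14% (0.181 to 33.9) and 3.23% (0.0816 to 16.7) in MMPlow and 9.09% (5.06 to 14.8) and 12.7% (9.30 to 16.8) in MMPhigh, the other way round, and the share in summed UMIs overlapped. Among erythroid-like cells, 738 of the 816 in MMPhigh 1 lay in a cluster led by Hbb-bs and Cited4, at 0.447%, which held 3, 6 and 5 cells of MMPlow 1, MMPlow 2 and MMPhigh 2, while the cluster led by Hba-x and Hbb-y gave 0.555% and 0.571% in MMPlow and 0.528% and 0.638% in MMPhigh. Of the mesenchymal-like cells, the Acta2 cluster held 250 of 936 and 272 of 995 in MMPlow and 13 of 109 and 15 of 133 in MMPhigh. Within the Acta2 cluster the share was 0.288% and 0.294% in MMPlow and 0.296% and 0.210% in MMPhigh, with overlap. Within the Col2a1 cluster it was 0.463% and 0.475% against 0.454% and 0.453%, lower in MMPhigh without overlap. This holds for the thinned mean: without thinning and in summed UMIs the Col2a1 cluster overlapped, and in summed UMIs the Acta2 cluster differed by 0.0345 percentage points in the positive direction. Of the endothelial-like cells, the cluster led by Gng11, S100a16 and AY036118 held 518 of 7792 and 660 of 8907 in MMPlow and 7 of 20 and 4 of 17 in MMPhigh, at 0.415% and 0.422% against 0.350% and 0.675%. The one led by Gng11, S100a16 and Kcne3 held 834 and 1012 MMPlow cells and 7 and 1 MMPhigh cells, at 0.377% and 0.376% against 0.307% and 0.400%. In both of these endothelial-like clusters the fractions overlapped.

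Looked at cell by cell, the neural difference appeared at both ends of the distribution. Cells with no S phase UMI per 2000 were 1.77% and 1.92% of MMPlow neural cells and 6.07% and 11.8% of MMPhigh neural cells. The share with at least 10 such UMIs was 12.8% (9.87 to 16.2) and 12.9% (10.1 to 16.04) in MMPlow, and 7.44% (6.00 to 9.09) and 3.73% (2.68 to 5.04) in MMPhigh. The order of the fractions was the same in each of the 4 depth ranges, although the deepest, from 10000 UMIs, held only 9 and 25 MMPlow cells: among cells of 2000 to 3000 UMIs the share was 0.314% and 0.303% in MMPlow and 0.270% and 0.170% in MMPhigh, and among cells of 3000 to 5000 UMIs it was 0.274% and 0.267% against 0.242% and 0.141%. G2 and M phase genes gave 0.475% and 0.496% of UMIs in MMPlow and 0.408% and 0.280% in MMPhigh, also without overlap. Cells low in both phases, with under 10 UMIs per 2000 of each list, made up 65.1%, 64.9%, 65.1% and 85.1% of the class in MMPlow 1, MMPlow 2, MMPhigh 1 and MMPhigh 2, so by this count only MMPhigh 2 stood apart.

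**Figure D3:**
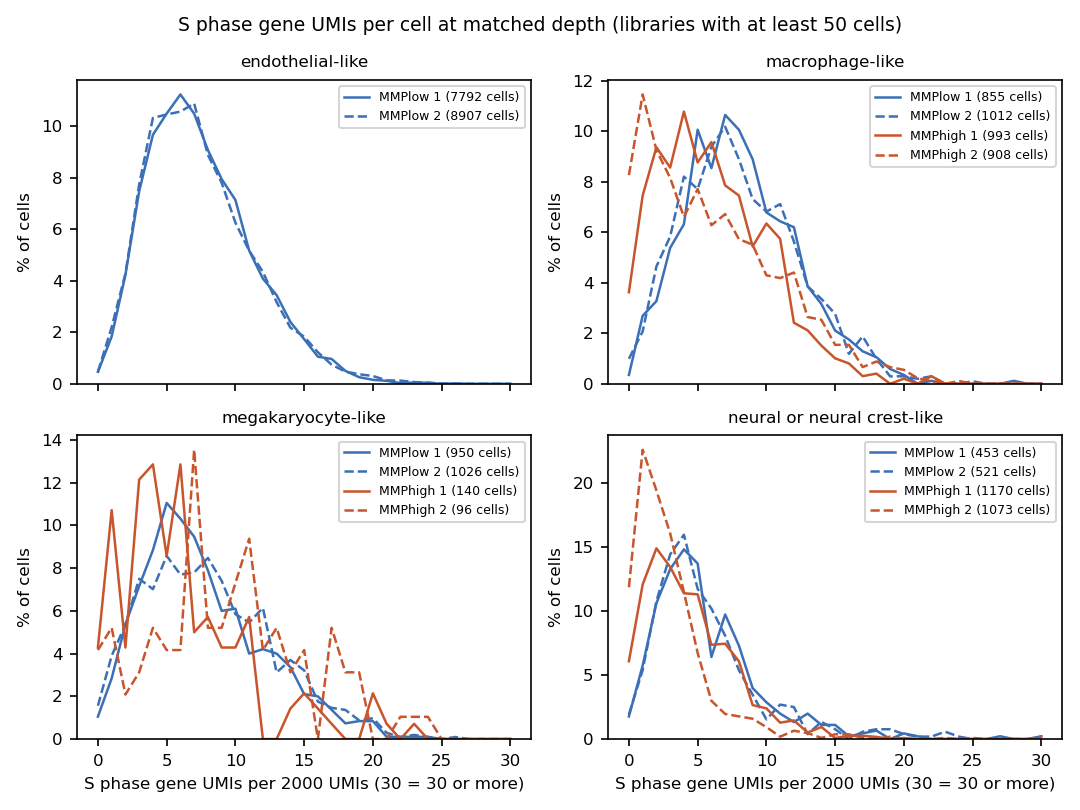
Percent of cells (y axis) with each number of S phase UMIs per 2000 UMIs (x axis; 30 stands for 30 or more) in 4 classes. Lines are libraries with at least 50 cells, so MMPhigh is absent from the endothelial-like panel; the MMPhigh lines start higher at 0 UMIs in macrophage-like and neural or neural crest-like cells, where 3.63% and 8.26%, and 6.07% and 11.8%, of cells held none.

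The genes differed in direction when UMIs were summed over all cells of a library. By edgeR's quasi-likelihood test with Benjamini-Hochberg adjustment over all genes, 17 of the 42 were lower and 3 higher in MMPhigh at an adjusted p under 0.05. Over all 20383 genes tested, 26.5% were lower and 27.3% higher, so calls were common everywhere. The median log2 fold was -0.18 over the 42 genes and 0.01 over all genes. In 37 of the 42 the libraries of the fractions did not overlap, 29 lower and 8 higher, against 78.1% of all genes. Fewer cells of a kind and fewer transcripts per cell cannot be told apart in these sums. Of the 20 calls, Ccne2 and Brip1 kept theirs in all 13 alternative settings. The share of all genes called was not counted in these settings, so the counts that follow have no background beside them. Without MMPlow 2 the count of lower genes was 9, among cells of 2000 to 5000 UMIs it was 3, and among cells of at least 5000 UMIs it was 30. The count of higher genes was 0 without MMPlow 1 and 1 without MMPlow 2.

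The largest fold of the list belonged to a regulator of S phase entry. Ccne2, the cyclin E that drives entry into S phase, was at 52.0 and 44.1 CPM in MMPlow and at 21.2 and 22.4 in MMPhigh. Both MMPhigh libraries lay at about the same low level, and the log2 fold of -1.10 ± 0.10 (SE) had an edgeR adjusted p of 3.65e-05. E2f8, a repressor of the E2F programme late in S phase, was at 27.1 and 27.7 CPM in MMPlow and 19.96 and 19.51 in MMPhigh, with a log2 fold of -0.44 ± 0.09 (SE) and an edgeR adjusted p of 0.00298. Of the 5 licensing and origin firing genes, 2 were lower, Dtl and Cdc6, where 26.5% of all genes were lower and 27.3% higher. Dtl, part of the ligase that destroys the licensing factor Cdt1, stood at 68.6 and 77.3 CPM against 52.3 and 56.1, and Cdc6 at 42.2 and 37.6 against 27.0 and 32.8. Geminin (Gmnn), which blocks relicensing, was at 140.5 and 142 CPM in MMPlow and 124 and 108 in MMPhigh and was not called, with an edgeR adjusted p of 0.0667.

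No call was made for the MCM helicase over all cells: edgeR called 0 of its 6 subunits and put 0 below an unadjusted p of 0.05, DESeq2's Wald test called 0, and their log2 folds lay between -0.18 and 0.18. The sign of the fold changed in at least 1 of 13 settings for Mcm3, Mcm4, Mcm6 and Mcm7. Mcm3 was at 149 and 152 CPM in MMPlow and at 137 and 151 in MMPhigh. Mcm6 was at 128 and 138 CPM against 118 and 140, and its libraries overlapped too. Summed over the subunits, MMPlow stood at 646 and 661 CPM and MMPhigh at 608 and 675. Genes of DNA synthesis at the fork were mixed, with 2 lower and 1 higher of 8, near the 26.5% lower and 27.3% higher over all genes. Pola1, the catalytic subunit of polymerase alpha, was at 221 and 229 CPM in MMPlow and 151 and 167 in MMPhigh, with a log2 fold of -0.47 ± 0.09 (SE) and an edgeR adjusted p of 0.00332. The sliding clamp Pcna overlapped, at 147 and 163 CPM against 157 and 145. Fen1, the nuclease that trims Okazaki fragments, was higher at 60.5 and 58.5 CPM in MMPhigh against 48.7 and 53.7, with an edgeR adjusted p of 0.0447, and this call was lost in 10 of 13 alternative settings. Pold3, a subunit of polymerase delta, and Clspn, which links a stalled fork to its checkpoint, were lower, with log2 folds of -0.36 and -0.28.

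All 6 DNA repair genes were called, 5 of them lower, where 26.5% of all genes were lower and 27.3% higher. Brip1, a helicase that works with Brca1, was at 59.8 and 62.5 CPM in MMPlow and 33.7 and 37.8 in MMPhigh, with a log2 fold of -0.74 ± 0.09 (SE) and an edgeR adjusted p of 0.000190. The Bloom helicase gene Blm was at 92.0 and 90.9 CPM against 58.5 and 62.3, and Rad51ap1, a homologous recombination gene, at 52.8 and 50.3 against 35.9 and 37.1. In all 3 genes the libraries of the fractions did not overlap, as in 78.1% of all genes tested. Usp1, a deubiquitinase that acts on Pcna, and the exonuclease gene Exo1 were lower too, with log2 folds of -0.33 and -0.32. Ung, which removes uracil from DNA, was the exception, at 24.2 and 23.5 CPM in MMPlow and 28.5 and 28.8 in MMPhigh, a log2 fold of 0.30 ± 0.08 (SE) with an edgeR adjusted p of 0.0154.

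Of the 10 chromatin and histone genes, 5 were lower and 0 higher, where 26.5% of all genes were lower and 27.3% higher. The number called was near the background taken over both directions together, but all 5 calls were lower. Nasp, the histone chaperone that gave 10.5% and 10.2% of all S phase UMIs in MMPlow and 12.92% and 12.96% in MMPhigh, was at 434 and 432 CPM in MMPlow and 467 and 486 in MMPhigh and was not called. Atad2, a bromodomain ATPase, was at 199 CPM in both MMPlow libraries and 128 and 130 in MMPhigh, with a log2 fold of -0.58 ± 0.09 (SE) and an edgeR adjusted p of 0.000679. Wdr76 was at 60.9 and 62.1 CPM against 41.8 and 39.1. The helicase gene Hells, which acts with DNA methylation, was at 186 and 182 CPM in MMPlow and further apart in MMPhigh, at 124 and 157. Casp8ap2 and Ubr7 were also lower, with log2 folds of -0.38 and -0.34. Slbp, which binds the stem-loop of histone mRNAs, was not called at 127 and 141 CPM against 111 and 124. Of the nucleotide genes, Rrm1 was not called, at 130 and 138 CPM against 114 and 127. Rrm2, the subunit whose level follows S phase, was higher at 105 and 113 CPM in MMPhigh against 85.4 and 95.2 in MMPlow. Its edgeR adjusted p was 0.0255, and its call was lost in the same settings as that of Ung.

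**Figure D4:**
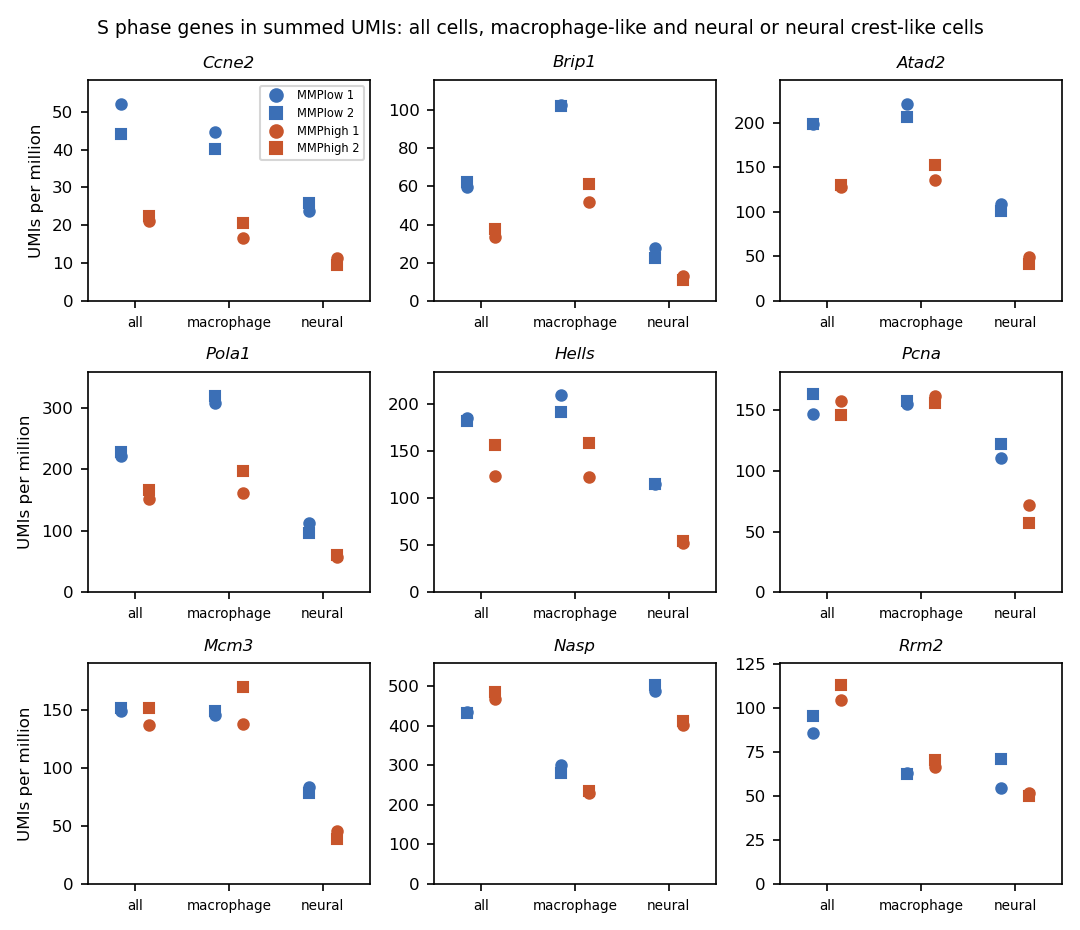
Level of 9 S phase genes (y axis, CPM of the summed UMIs) in all cells, macrophage-like cells and neural or neural crest-like cells (x axis), 1 point per library. Ccne2, Brip1, Atad2 and Pola1 lie lower in both MMPhigh libraries in all 3 sums, whereas Pcna and Mcm3 do so only in the neural sums.

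Within neural or neural crest-like cells most of the list was lower in MMPhigh. Of the 42 genes, 32 were lower and 0 higher in MMPhigh by edgeR, where 9.63% of the 14439 genes tested were lower and 7.74% higher. The median log2 fold was -0.73, and all 42 folds were negative. Gins2, a subunit of the GINS complex, was at 70.9 and 59.4 CPM in MMPlow and 29.8 and 19.3 in MMPhigh, with a log2 fold of -1.37 ± 0.21 (SE) and an edgeR adjusted p of 0.00304. Ccne2 was at 23.8 and 26.0 CPM against 11.4 and 9.54, Cdc6 at 22.2 and 15.1 against 7.40 and 8.31, and Atad2 at 109 and 101 against 49.1 and 41.6, with log2 folds of -1.21, -1.16 and -1.15. Both MMPhigh libraries were the lower ones for each of these genes. How many of all genes do so in the neural sums was not counted. All 5 licensing and origin firing genes and 5 of 6 MCM subunits were called, so helicase genes that were not called over all cells were lower here, with a sum of 441 and 413 CPM in MMPlow and 272 and 263 in MMPhigh.

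The 10 genes not called in this class include Nasp, the most abundant of the list. It was at 489 and 504 CPM in MMPlow and 402 and 413 in MMPhigh, with a log2 fold of -0.22 ± 0.13 (SE) and an edgeR adjusted p of 0.272. Levels in CPM are scaled to the total of each sum, while the folds also carry the TMM factors, so both are given. Pcna was called here, at 111 and 122 CPM against 71.6 and 57.0, a log2 fold of -0.80 ± 0.14 (SE) with an edgeR adjusted p of 0.00252. Hells stood at 115 CPM in both MMPlow libraries and at 52.9 and 55.1 in MMPhigh. Of the other cycle genes in these cells, 28 of 52 G2 and M phase genes were lower and 0 higher, among them Top2a, at 292 and 283 CPM against 145 and 138. Of 22 regulators of the G1 to S step tested in these cells, 6 were lower and 2 higher, with a median log2 fold of -0.32, where 9.63% of all genes were lower and 7.74% higher, so the 2 higher genes are near the background. The 6 were E2f7, E2f2, Ccne1, Cdk6, Rbl1 and E2f6, with log2 folds from -1.48 for E2f7 to -0.51 for E2f6. Cdkn1c, an inhibitor of cyclin-dependent kinases, was higher at 2290 and 1641 CPM against 1268 and 1470, with an edgeR adjusted p of 0.0446, and Cdkn1a at 20.3 and 23.5 against 11.4 and 13.2.

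Marker levels of the neural class differed between the fractions too. Its 6 neuron markers summed to 2880 and 3103 CPM in MMPlow and 4224 and 4812 in MMPhigh, and its 6 precursor and crest markers to 110.2 and 109 CPM against 90.2 and 96.5. Markers of endothelial cells, 12 genes in all, summed to 855 and 751 CPM in the neural cells of MMPlow and to 76.2 and 24.7 in those of MMPhigh, with Pecam1 at 93.6 and 71.4 against 8.57 and 2.95. None of the 12 endothelial markers was at 0 in any library. The size of the class also changed with the clustering. It held 453, 521, 1170 and 1073 cells in MMPlow 1, MMPlow 2, MMPhigh 1 and MMPhigh 2. When 8 cell cycle genes, none of them an S phase gene, entered the clustering, the class so named held 387, 435, 479 and 887. The part of these differences in the S phase result was not tested. For the alternative fits that follow, the share of all genes called was not counted. The 32 calls became 21 and 22 without MMPlow 1 or 2, 33 without MMPhigh 1 and 25 without MMPhigh 2. In cells of 2000 to 5000 UMIs, where MMPhigh 2 keeps 86 neural cells, 0 genes were called by edgeR, and the summed share still differed by -0.0850 percentage points.

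In macrophage-like cells 10 of the 42 genes were lower and 2 higher in MMPhigh, where 14.1% of 13312 genes were lower and 14.2% higher. The 12 calls are near that background taken over both directions. Ccne2 was at 44.7 and 40.3 CPM in MMPlow and 16.7 and 20.5 in MMPhigh, with a log2 fold of -0.98 ± 0.15 (SE) and an edgeR adjusted p of 0.000677. Blm was at 89.5 and 75.3 CPM against 42.1 and 47.2, Brip1 at 102.5 and 102 against 51.8 and 61.1, and Pola1 at 307 and 319 against 161 and 198. None of the 6 MCM subunits was called by edgeR, with 1 at an unadjusted p under 0.05. Rfc2, a subunit of the clamp loader, was higher at 117 and 112 CPM against 94.6 and 98.3, with a log2 fold of 0.44 ± 0.11 (SE), and Rrm2 at 66.2 and 70.4 against 62.8 and 62.4, with an edgeR adjusted p of 0.0484. Different macrophage-like clusters made up the class in each fraction, and the part of this in the calls was not tested. Leaving out MMPlow 2 or MMPhigh 1 gave 6 lower genes each, leaving out MMPlow 1 or MMPhigh 2 gave 7, and without MMPlow 1 there were 0 higher, without MMPlow 2 or MMPhigh 2 there was 1, and without MMPhigh 1 there were 3.

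**Figure D5:**
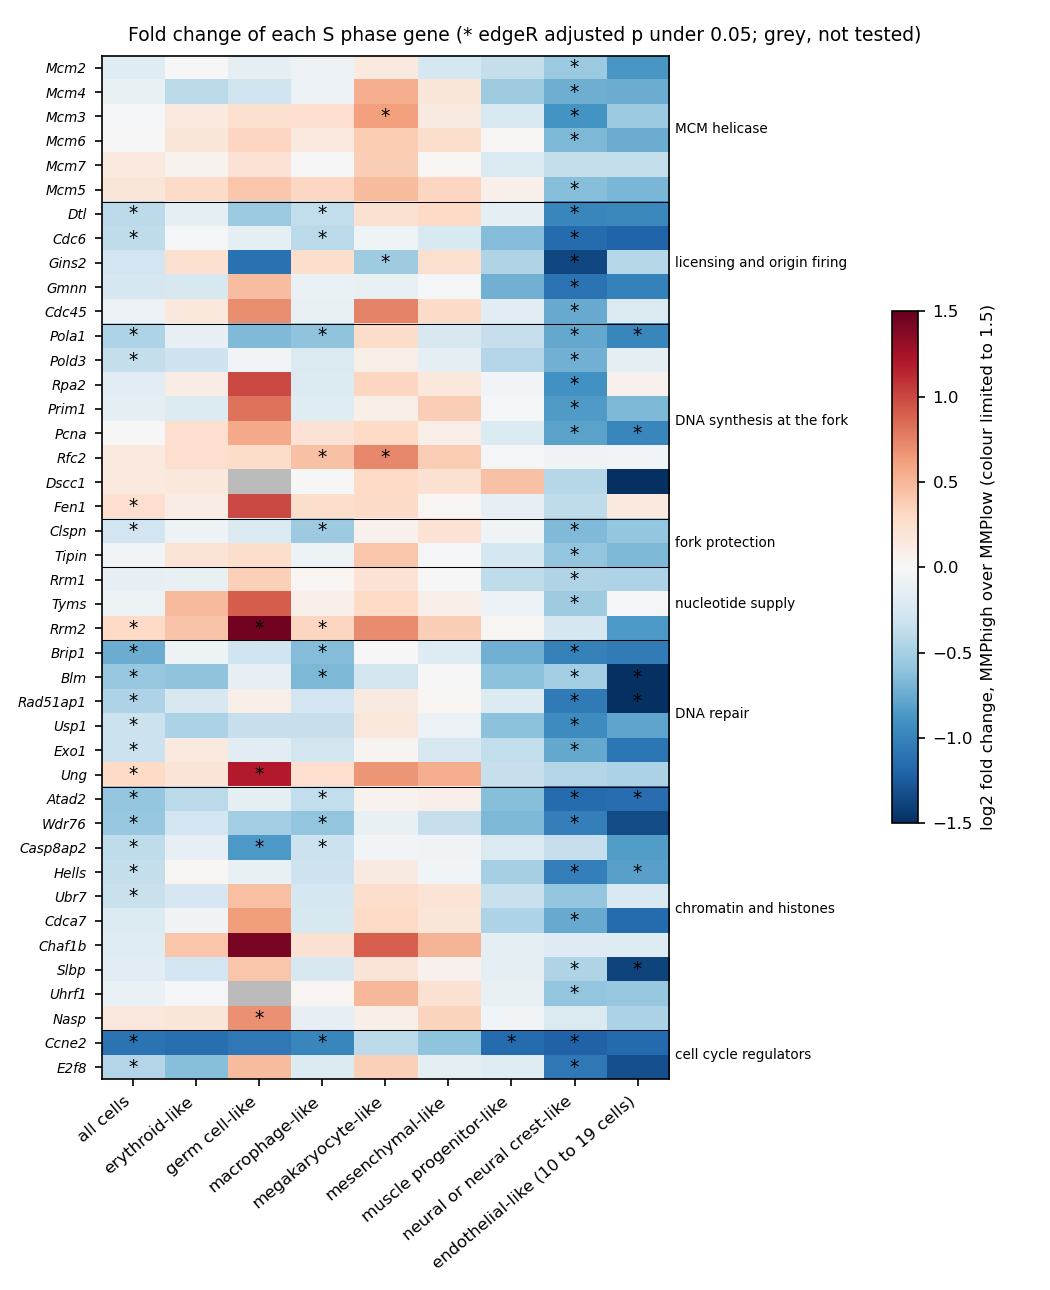
Log2 fold change of MMPhigh over MMPlow (colour, limited to 1.5 in either direction) for each of the 42 genes (rows, grouped by role) in the sums of all cells and of each class (columns). Stars mark an edgeR adjusted p under 0.05 and grey marks genes not tested; the neural or neural crest-like column is below 0 throughout, and Ccne2 is below 0 in every column.

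Other classes gave few calls. In megakaryocyte-like cells Gins2 was lower, at 101 and 89.0 CPM against 60.2 and 59.5, while Rfc2 at 106 and 131 against 162 and 195 and Mcm3 at 113 and 128 against 147 and 189 were higher. These are 1 lower and 2 higher of 42, where 6.27% of genes were lower and 3.36% higher, and 35 of the 42 folds were positive. In muscle progenitor-like cells 1 gene was lower, Ccne2, at 53.0 and 59.5 CPM against 25.73 and 23.998, where 2.06% of genes were lower and 0.434% higher. In mesenchymal-like cells edgeR called 0 of 42 in either direction, with 10 at an unadjusted p under 0.05, and DESeq2 called 0, where 7.12% of genes were lower and 3.86% higher. In erythroid-like cells edgeR called 0 of 42, with 8 at an unadjusted p under 0.05, and DESeq2 called 0, where 0.224% of genes were lower and 0.00935% higher. Counts changed when 1 library was left out: in megakaryocyte-like cells the count of higher genes was 0 without MMPlow 1, 0 without MMPhigh 2 and 12 without MMPhigh 1, the count of lower genes was 0 without MMPlow 1, MMPlow 2 or MMPhigh 1, and in muscle progenitor-like cells the count of lower genes was 0 without either MMPlow library, 2 without MMPhigh 1 and 7 without MMPhigh 2. In erythroid-like cells 3 genes were lower and 2 higher without MMPhigh 1, and 7 lower and 1 higher without MMPhigh 2. In mesenchymal-like cells 3 were higher without MMPhigh 1 and 1 was lower without MMPlow 2.

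Endothelial-like cells, the kind for which CD31 is best known, could be compared only at a lower minimum of 10 cells, with 20 and 17 cells in MMPhigh. Of the 42 genes 7 were lower and 0 higher, where 1.25% of 14997 genes were lower and 0.874% higher. Slbp was at 114 and 120 CPM in MMPlow and 52.7 and 39.3 in MMPhigh, with a log2 fold of -1.39 ± 0.26 (SE) and an edgeR adjusted p of 0.00505. Atad2 was at 184 and 179 CPM against 92.2 and 75.9. Blm and Rad51ap1 had larger folds, of -1.53 and -1.63, but rest on 3 and 11 UMIs of Blm and on 5 and 4 UMIs of Rad51ap1 in MMPhigh. Hells, Pcna and Pola1 were the other 3 genes called.

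Germ cell-like cells were led by Dppa3 and Pou5f1, genes of primordial germ cells. Of 40 genes tested, 1 was lower and 3 higher, where 3.47% of genes were lower and 4.78% higher. Ung was at 112 and 120 CPM in MMPlow and 260.5 and 228 in MMPhigh, Rrm2 at 50.8 and 90.1 against 157 and 201, and Nasp at 609 and 645 against 893 and 946. Casp8ap2 was lower at 274 and 323 CPM against 144 and 156. The MMPlow sums hold few molecules, with 5 and 12 UMIs of Rrm2 and 11 and 16 of Ung. Without MMPlow 1 the count of higher genes was 1, without MMPlow 2 the count of lower genes was 0, and it was 2 without MMPlow 1 or MMPhigh 2. Uhrf1, which brings the maintenance methyltransferase Dnmt1 to the fork, was scarce in these cells, with 3 UMIs in each MMPlow library and 5 and 31 in MMPhigh, or 30.5, 22.5, 7.75 and 12.9 CPM. In erythroid-like cells it stood at 146, 140, 121 and 164 CPM.

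The class with the lowest level was the same for most of the genes, and the class with the highest was not. Taking the mean of the MMPlow libraries, 34 of the 42 genes were lowest in neural or neural crest-like cells, 20 were highest in erythroid-like cells and 12 in germ cell-like cells. Others had their extremes elsewhere. Nasp was highest in muscle progenitor-like cells, at 711 and 697 CPM, and lowest in megakaryocyte-like cells at 249.1 and 249.3 CPM. Gins2 was highest in megakaryocyte-like cells, Uhrf1, Gins2, Cdca7 and Dscc1 were lowest in germ cell-like cells, and Rrm2 was lowest in macrophage-like cells.

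Whether the difference between the fractions depended on the class was tested in 1 model. With a class by fraction term over 7 classes, 21 of the 42 genes passed an edgeR adjusted p under 0.05, where 14.5% of the 15800 genes tested did. All 21 had their lowest fold in neural or neural crest-like cells. The smallest adjusted p values belonged to Nasp at 2.11e-05, Gins2 at 8.35e-05, Mcm3 at 0.000603, Atad2 at 0.000802, Pcna at 0.00279 and Dtl at 0.00487. Mcm3 had a log2 fold of -0.89 in neural cells and 0.62 in megakaryocyte-like cells, and Pcna of -0.80 in neural cells and 0.22 in macrophage-like cells. Nasp had -0.22 in neural cells and 0.68 in germ cell-like cells. The count changed with the libraries used: it was 0 without MMPlow 1 and 0 without MMPlow 2, 39 without MMPhigh 1 and 22 without MMPhigh 2. Among cells of 2000 to 5000 UMIs it was 1. The share of all genes that passed was counted for the main fit only. Passing was not particular to the S phase genes. In the main fit, G2 and M phase genes such as Tubb4b, Cks2 and Cdca8 passed too, and Cdk1 and Cdc20 did not.

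Other genes of the pathway were counted over all cells in the same way, where 26.5% of all genes were lower and 27.3% higher. Of 42 other replication genes, 15 were lower and 3 higher by edgeR, with a median log2 fold of -0.15. The checkpoint gene Topbp1 was at 128 and 130 CPM in MMPlow and 81.1 and 60.0 in MMPhigh, and Cdc7, the kinase that fires origins, at 39.7 and 38.4 against 22.9 and 23.6. Orc1 and Gins3 were also lower, and Rfc5, Pold2 and Gins4 were higher, with log2 folds of 0.44, 0.38 and 0.25. Of 16 other nucleotide synthesis genes, 0 were lower and 1 was higher, Dctpp1, which clears damaged nucleotides, at 139 and 160.5 CPM in MMPlow against 205 and 187 in MMPhigh. Of 23 regulators of the G1 to S step, 8 were lower and 5 higher, near that background. E2f7, the partner of E2f8, was at 41.6 and 40.2 CPM against 15.6 and 16.9, and E2f3 at 150 and 137 against 89.0 and 109, while Cdkn1c was higher, at 1092 and 778 CPM against 313 in both MMPlow libraries, and Cdkn1a at 26.3 and 27.5 against 13.7 and 12.9. Of 52 G2 and M phase genes, 21 were lower and 4 higher, with Ttk at 44.6 and 40.5 CPM against 24.03 and 24.23 and Ube2c at 119 and 119.9 against 220.1 and 176.5.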

How the data were processed

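The deposited matrices, 1 for each of the 4 libraries, give whole-number UMI counts (unique molecular identifiers) for each barcode, without normalisation by the authors. The matrices came from Cell Ranger 7.0.1 per the file headers, whereas the submitters' processing notes list Cell Ranger 2.1.1 and the mm10 build, and this difference is unresolved. Libraries were made with the 10x 3' v3 kit, per the labels' protocols.

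The filter on cells asked for 2000 or more UMIs, 1000 or more genes and under 25% mitochondrial UMIs. The highest Scrublet doublet scores were removed at 0.8% per 1000 cells, up to 6%, because its automatic threshold marked 1, 887, 0 and 0 cells; this was decided after those calls were seen. Cells were normalised to 10000 UMIs and clustered (scanpy 1.11.5, Leiden, resolution 1, 2000 variable genes without cell cycle genes, 30 components, 15 neighbours). Mitochondrially encoded, ribosomal protein and nuclear respiratory chain genes were also left out of the variable genes in every clustering. The libraries were clustered together without integration. Classes were named from marker lists, and the thresholds for naming were set after the clusters were seen. Shares were measured once per cell after thinning to 2000 UMIs.

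UMIs were summed per library and class of at least 20 cells in every library (endothelial-like cells at 10), and tested with edgeR 4.0.16 (R 4.3.3; quasi-likelihood, TMM, Benjamini-Hochberg over all genes, threshold 0.05), with DESeq2 1.42.0 as an alternative. Levels are counts per 1000000 UMIs of each sum (CPM), without TMM factors. On simulated data for the sums of all cells (20383 genes), the test recovered 86.0% of 93 genes simulated with a log2 change of 1 and 96.3% of 107 simulated with 2, with 9 false calls. Every simulated gene was given the same dispersion, whereas in the data it was estimated gene by gene, so recovery of more variable genes was not tested. Smaller changes were not simulated, whereas the S phase genes had a median log2 fold of -0.18 over all cells. How often folds of that size, or those of the MCM subunits, would be called is therefore not shown. Far fewer genes were changed than were called in the data (26.5% lower and 27.3% higher), so false calls under such conditions were not tested. Promoters came from RefSeq (GRCm38.p6) and exons from GENCODE vM21.

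The members and lists were chosen with earlier results of these data known. Genes described with values are the 10 most abundant members, up to 8 called members in each direction over all cells and 4 in each class by fold, the 6 with the smallest interaction p, Pecam1, and up to 4 called genes per pathway list and direction. Usp1, Exo1, Pold3, Clspn and Ubr7 are given by their fold alone. Dtl, Cdc6, Casp8ap2, Hells and Uhrf1, some of which also meet these rules, were added after their values were seen.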

Additional observations from a re-analysis of the deposited data

Results flagged for a closer look

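With all 4 libraries, the difference between MMPhigh and MMPlow depended on which of 7 classes was measured for 21 of the 42 genes, by the class by fraction term of the edgeR fit, with p-values adjusted over all 15800 genes, of which 14.5% passed. The count was 0 without MMPlow 1 and 0 without MMPlow 2, 39 without MMPhigh 1 and 22 without MMPhigh 2, and it was 1 among cells of 2000 to 5000 UMIs. The count among cells of 2000 to 5000 UMIs came from macrophage-like and neural or neural crest-like cells alone. For these alternative fits the share of all genes that passed was not counted. All 21 genes of the main fit had their lowest fold in neural or neural crest-like cells, 9 had their highest in germ cell-like cells and 9 in megakaryocyte-like cells. The adjusted p was 2.11e-05 for Nasp, 8.35e-05 for Gins2, 0.000603 for Mcm3, 0.000802 for Atad2, 0.00279 for Pcna and 0.00487 for Dtl. It was 0.00582 for Cdca7, 0.00587 for Tyms, 0.00606 for Prim1, 0.00639 for Rpa2 and 0.0086 for Hells. Next came Tipin at 0.0128, Rrm2 at 0.0129, Mcm5 at 0.0137, Mcm4 at 0.0175 and Mcm6 at 0.0187. The largest adjusted p values were those of Pola1 at 0.0217, Fen1 at 0.0225, Gmnn at 0.0242, Cdc45 at 0.0338 and Usp1 at 0.0364. Fen1, Nasp and Rrm2 passed here without being called in neural or neural crest-like cells themselves. Passing was not particular to the S phase genes. In the same fit G2 and M phase genes such as Tubb4b, Cks2 and Cdca8 passed too, and Cdk1 and Cdc20 did not.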

How the results depend on the processing

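The share over all cells was lower in MMPhigh in every setting run, at -0.0923 with at least 5000 UMIs per cell and -0.0796 with at least 1000 UMIs and 500 genes, and from -0.0725 to -0.0646 leaving out 1 library. With equal class weights leaving out 1 library gave -0.0845 to -0.00676, the latter without MMPhigh 1 and over the 10 classes then available (-0.0170 over the same 8 classes). Neural or neural crest-like cells gave -0.144 when cell cycle genes entered the clustering and -0.132 to -0.0625 leaving out 1 library. The 8 cell cycle genes that entered included none of the S phase genes. That setting therefore cannot show whether clustering on the S phase genes themselves would change the shares. Macrophage-like cells gave -0.104 at 5000 UMIs, -0.0749 at 2000 to 5000 UMIs, -0.0954 with doublets kept, -0.0961 with automatic doublet calls (chosen after seeing the data), -0.144 with cell cycle genes, -0.0859 at resolution 0.5, -0.103 without thinning, and -0.101 to -0.0968 leaving out 1 library. Endothelial-like cells gave -0.118 with cell cycle genes, -0.118 at resolution 0.5, -0.0695 without thinning, and -0.0600 to -0.0542 leaving out 1 library; muscle progenitor-like cells gave -0.134 to -0.0477. A change of clustering also changes which cells a class name covers. At resolution 0.5 a cluster led by Slc25a21 and Ermap was named erythroid-like. It held 1204, 1161, 128 and 334 cells of MMPlow 1, MMPlow 2, MMPhigh 1 and MMPhigh 2, against 103, 130, 816 and 168 in the whole main class. Germ cell-like cells then numbered 39, 40, 1061 and 156, against 27, 30, 49 and 47. Direction changed in 4 classes. Erythroid-like cells turned from -0.0213 to 0.0147 at 1000 UMIs, 0.0518 with cell cycle genes, 0.0606 at resolution 0.5 and 0.00138 without thinning, with -0.111 to 0.0681 leaving out 1 library. Megakaryocyte-like cells turned from -0.00434 to 0.104 at 5000 UMIs, 0.0171 with cell cycle genes and 0.00304 without thinning, with -0.0871 to 0.0785. Mesenchymal-like cells turned from 0.00964 to -0.0105 at 5000 UMIs and -0.0286 at 2000 to 5000 UMIs, and were 0.00228 at resolution 0.5, with 0.00495 to 0.0143. Germ cell-like cells turned from -0.0458 to 0.0498 without MMPhigh 1, and gave -0.141 without MMPhigh 2. The cause was not tested.

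Genes called lower over all cells numbered 30 at 5000 UMIs, 3 at 2000 to 5000 UMIs, and 9 to 18 leaving out 1 library. Genes called higher numbered 0 at 5000 UMIs, 0 at 1000 UMIs, 0 at 2000 to 5000 UMIs, and 0 to 3 leaving out 1 library. Summed over 7 classes, 45 lower calls became 6 at 2000 to 5000 UMIs and 26 with DESeq2's Wald test, and 29 to 49 leaving out 1 library. The 7 higher calls became 1 at 5000 UMIs, 2 at 2000 to 5000 UMIs, 13 with doublets kept, 11 with cell cycle genes, 54 at resolution 0.5, 15 without a gene filter and 3 with the Wald test, and 1 to 24 leaving out 1 library. At 2000 to 5000 UMIs only macrophage-like and neural or neural crest-like cells kept 20 cells in every library. The class and interaction counts at that setting come from them alone. With cell cycle genes and at resolution 0.5 the class names cover other cells. The share of all genes called was counted for the main fits only. No count of called genes from an alternative setting in this report therefore has a background beside it. In neural or neural crest-like cells the Wald test called 20. The 21 interactions became 1 at 2000 to 5000 UMIs, 38 with cell cycle genes and 32 at resolution 0.5, and 0 to 39 leaving out 1 library; this term was not run with the Wald test. Where a library was left out, the lone library of its fraction was assumed to vary like the other fraction.

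With the replicate number as a block, 18 genes were lower and 2 higher over all cells, and 50 lower and 10 higher within classes. Same-numbered libraries deviated together with r = 0.117 over 20383 genes, from only 2 pairs, and the labels do not say that a number marks a shared litter or batch. The interaction fit already holds a term for each library. With 2 libraries a fraction, 20 and 17 endothelial-like MMPhigh cells and 27 and 30 germ cell-like MMPlow cells, values in these classes rest on few cells, and how small a difference could be detected there was not simulated.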

Other observations

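Of the 10 unnamed clusters, 7 held at least 19 cells in every library, and they did not share a direction in the S phase share. Those led by Myb, Neurod1 and Sox10 are described in the report: the first was higher in MMPhigh without overlap, and in the other two the fractions overlapped. The cluster with Ccr2 and Plac8 was at 0.496% and 0.505% in MMPlow and 0.430% and 0.491% in MMPhigh, with both MMPhigh libraries below. The cluster with Wt1 and Gata4, genes of the coelomic lining and gonadal ridge, was at 0.429% and 0.423% against 0.318% and 0.364%, also lower without overlap. The cluster with Prrx1 and Tbx15, genes of embryonic mesenchyme, lay at 0.469% and 0.515% against 0.479% and 0.564%, and that with Afp and Alb, liver genes, at 0.421% and 0.403% against 0.432% and 0.384%, both with overlap. The cluster with S100a9 and Ngp, neutrophil granule genes, held 22 cells of MMPlow 1, 704 of MMPlow 2 and 0 of either MMPhigh library. None of these differences was tested.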
